A study of Mus musculus with 31 samples.

Results

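Glutathione transferases were followed in ribosome-bound RNA of Drd1a-expressing and Drd2-expressing cells from mouse cortex and striatum taken from animals aged 6 weeks or 2 years. The members were 10 listed genes, and a feature entered only where its gene symbol was that gene alone: Gsta3, Gsta4, Gstm3, Gstm5, Gstm7, Gstt1, Gsto1 and Mgst1 had 1 feature each, so 8 of 10 genes were measured among 16345 features. The other two, Gstm1 and Gstp1, had no feature of their own in the probe gene table and are not analysed here. One further feature carried the symbols of both Gstm6 and Gstm3 and was left out. The genes lie on chromosomes 1 (Gsta3), 9 (Gsta4), 3 (the Gstm genes), 10 (Gstt1), 19 (Gsto1) and 6 (Mgst1).

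The 31 arrays came from translating ribosome affinity purification, in which a tagged ribosomal protein made in chosen cells is pulled down with its RNA. They form 8 groups, one for each pairing of age (6 weeks, called young, or 2 years, called old), region (whole cortex or striatum) and cell type (Drd1a-expressing or Drd2-expressing). Each group held 4 arrays except young striatum Drd1a, which held 3. No treatment was given. The labels name the cells only by their dopamine receptor gene: the driver of the tag, the strain, the sex and the number of animals behind an array were not stated there. Nothing in the labels says that replicates came from separate animals, so the p-values measure the spread between these arrays, which may be technical.

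The values are log2 expression with each gene set to about 0 at its own median over the arrays, so a value says how far an array lies above or below that gene's median, and levels of different genes cannot be compared. Array medians ran from -0.072 to 0.13, and 6 arrays had a median above 0.05. The receptor genes matched the labels. Drd1 was higher in Drd1a than in Drd2 cells in all 4 comparisons, and Drd2 was higher in Drd2 cells in all 4. However, Drd1 was 3.32-fold higher in old than in young cortex Drd2 arrays and 5.33-fold higher in old than in young striatum Drd2 arrays (limma, adjusted p = 1.8e-06 and 1.75e-09), a point that returns beside the age results. In purified bulk RNA, fewer cells of a type and less RNA per cell cannot be told apart.

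Glutathione transferases join the tripeptide glutathione to reactive, electron-poor molecules, which makes them more soluble and marks them for export from the cell. The cytosolic enzymes fall into classes named alpha (Gsta), mu (Gstm), pi (Gstp), theta (Gstt) and omega (Gsto), and Mgst1 belongs to a separate family embedded in membranes. In the brain, mu-class enzymes are known mainly from astrocytes and pi-class enzymes from oligodendrocytes. Many of these genes are known targets of Nrf2, a transcription factor that binds antioxidant response elements.

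The mu-class genes sit side by side on chromosome 3, in the order Gstm5, Gstm7, Gstm6, Gstm3, Gstm2, Gstm1 and Gstm4 with 3 pseudogenes between them (Gm9515, Gm12497 and Gm12502). Their sequences are alike, so probes of one may take up RNA of another, which was not tested. Promoter windows from RefSeq (build GRCm38.p6, 250 bases before to 50 bases after a start) were found for 9 of the 10 listed genes. Gsta4 had no window and was not searched. The windows of the alpha-class and mu-class genes called for age in Drd2 cells of both regions are shown here, with capitals marking the core of the antioxidant response element, TGACNNNGC, searched on both strands. The first lies on the plus strand at chr1:21240335-21240634 and the second on the minus strand at chr3:107969125-107969424.
Gsta3: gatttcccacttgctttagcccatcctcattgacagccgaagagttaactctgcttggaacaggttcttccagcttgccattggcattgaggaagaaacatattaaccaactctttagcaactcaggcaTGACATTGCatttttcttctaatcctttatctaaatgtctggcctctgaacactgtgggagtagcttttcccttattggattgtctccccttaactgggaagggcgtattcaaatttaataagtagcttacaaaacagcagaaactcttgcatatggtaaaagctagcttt
Gstm3: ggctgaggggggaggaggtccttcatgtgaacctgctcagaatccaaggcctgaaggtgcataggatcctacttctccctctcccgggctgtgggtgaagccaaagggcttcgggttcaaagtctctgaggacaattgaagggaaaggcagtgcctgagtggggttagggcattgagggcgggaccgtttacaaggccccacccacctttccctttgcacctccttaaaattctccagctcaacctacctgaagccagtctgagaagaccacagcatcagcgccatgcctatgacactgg
The Gsta3 window holds the core once, as TGACATTGC, 121 bases before the start, and the Gstm3 window has no match. Of the 9 genes with a window, 4 had the core: Gsta3, Gstm5 (TGACCACGC, 42 bases upstream), Gstm7 (TGACAAAGC, 129 bases upstream) and Mgst1 (GCACGGTCA, on the reverse strand, 56 bases upstream). The same letters occur in 14% of 27025 genes and 12.4% of 32851 windows. The AP-1 motif TGACTCA, or TGAGTCA on the other strand, occurred in Gstm5 and Gstp1, against 5.95% of all genes. A match describes these letters only. In the age comparisons described next, the gene with the largest change (Gsta3) holds the core and Gstm3, which also changed, does not.

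Age changes were the comparisons named in the study design, and a gene was called where limma's adjusted p over all features was below 0.05 and the change was at least 1.2-fold. In old Drd2 cells, Gsta3 and Gstm3 were higher in both regions and Gsta4 was higher in the striatum, by 1.77-fold to 2.64-fold. No gene was called lower, although Gsto1 in striatum Drd2 cells was with array weights (log2 change -0.40; limma, adjusted p = 0.00914). In cortex Drd2 cells 2 of 8 genes rose, where 1.85% of all features rose and 3.63% changed in either direction. In striatum Drd2 cells 3 of 8 rose, where 2.72% of all features rose and 5.7% changed. In Drd1a cells no gene was called in the cortex, where 0.453% of all features were called (0.214% higher), or in the striatum, where 3.43% were (1.58% higher). At an unadjusted p below 0.05, limma counted 5 of 8 genes in cortex Drd1a cells and 2 of 8 in striatum Drd1a cells. Of the 5, Gsto1 was lower (log2 change -0.28) and the others were higher. The share of all features at an unadjusted p below 0.05 was not computed. Counts at that threshold, here and below, therefore have no background. With array weights Gstm3 was called in cortex Drd1a cells (log2 change 0.53; limma, adjusted p = 0.0221), and Gsta4 and Gstm3 in striatum Drd1a cells (0.47 and 0.59; limma, adjusted p = 0.018 and 0.0141).

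**Figure D1:**
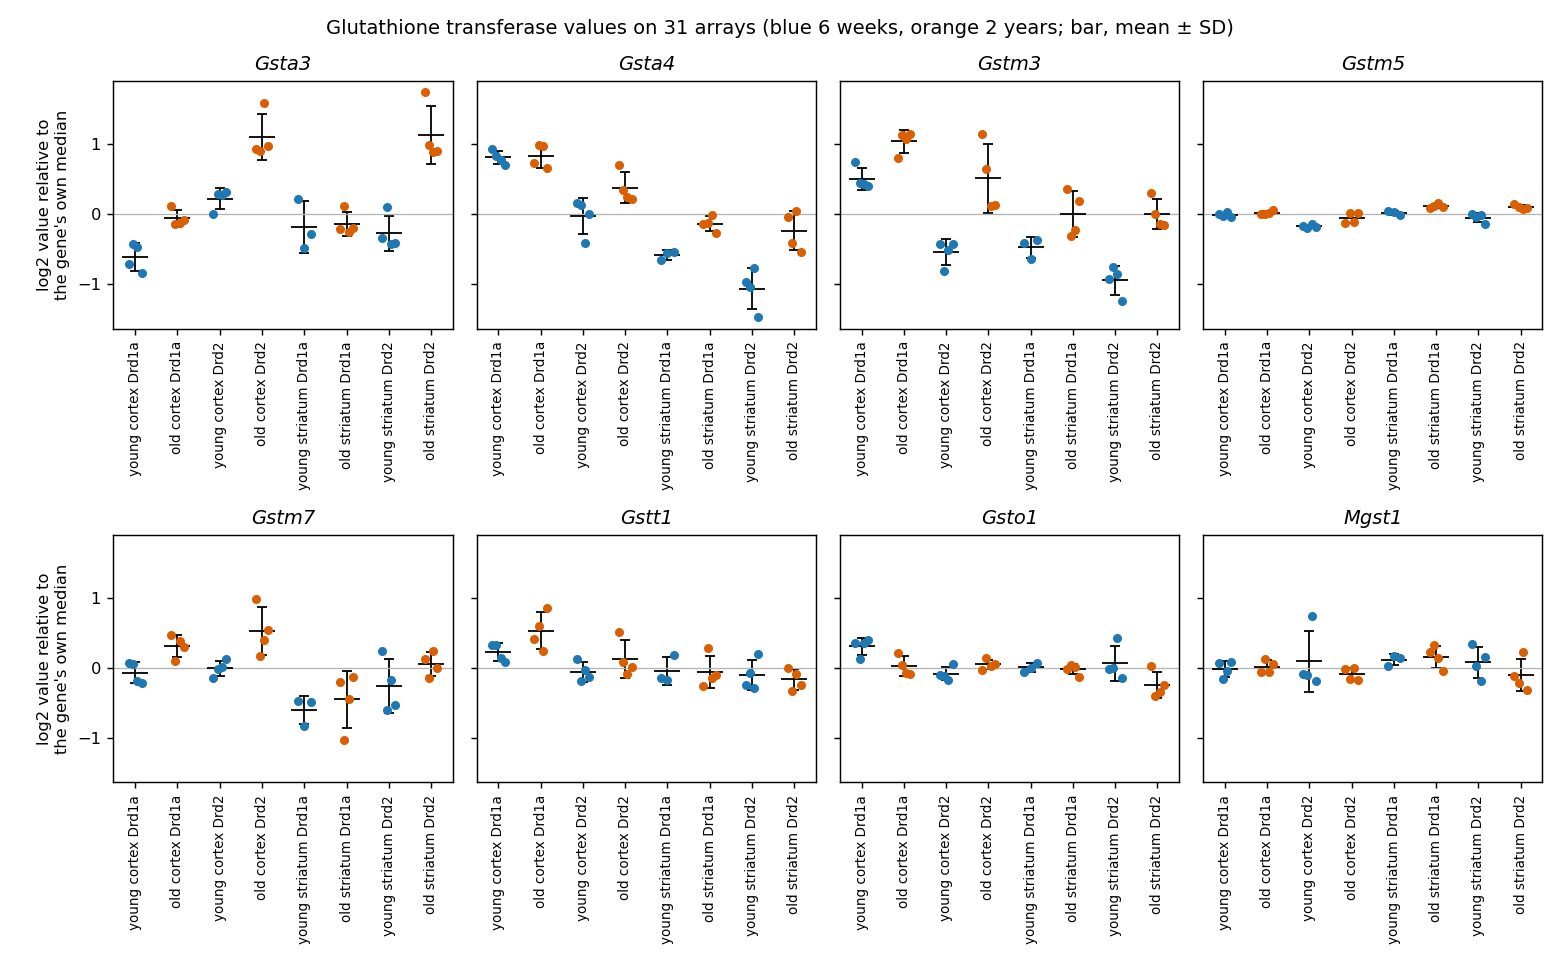
Each panel plots 1 gene, each point 1 of 31 arrays, as log2 value relative to that gene's own median; the horizontal bar is the group mean and the whiskers its SD, with 6-week arrays in blue and 2-year arrays in orange. The old Drd2 arrays of Gsta3, all at or above 0.89, lie above every other array of that gene, while Gstm5 stays within a narrow band.

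Gsta3, an alpha-class enzyme known in mice for disarming the activated form of aflatoxin, showed the largest change. In striatum Drd2 cells the 4 old arrays read 1.74, 0.99, 0.89 and 0.90 and the 4 young arrays -0.35, 0.10, -0.43 and -0.42, so that every old array was above every young one. The change was 1.40 ± 0.17 on the log2 scale (SE, n = 4 and 4), or 2.64-fold (limma, adjusted p = 6.29e-06). In cortex Drd2 cells the old arrays read 0.93, 0.90, 1.59 and 0.97 and the young arrays 0.00, 0.29, 0.28 and 0.31, again without overlap. That change was 0.88 ± 0.17 (SE), or 1.83-fold (limma, adjusted p = 0.00454), and it missed the threshold after quantile normalization (adjusted p = 0.0581).

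In Drd1a cells the same gene was not called for age. The old striatum Drd1a arrays read -0.22, 0.11, -0.25 and -0.20, and the 3 young ones 0.22, -0.49 and -0.29, inside which the old values fell. The change was 0.042 ± 0.19 (SE; limma, adjusted p = 0.942). The cortex Drd1a arrays read 0.11, -0.15, -0.13 and -0.09 when old and -0.71, -0.43, -0.47 and -0.84 when young, which did not overlap, with a change of 0.55 ± 0.17 (SE; limma, adjusted p = 0.18). The age change was larger in Drd2 than in Drd1a cells of the striatum by 1.36 ± 0.26 (SE; 95% interval 0.84 to 1.88; limma, adjusted p = 0.0277). That made Gsta3 the one listed gene called for this difference, against 0.0734% of all features. The call was lost, at an unchanged direction, after quantile normalization (1.91, adjusted p = 0.0794), in a fit of those groups alone (adjusted p = 0.172), without the 6 arrays of high median (1.53, adjusted p = 0.183) and without any one of 7 arrays: young striatum Drd2 replicates 1, 3 and 4, young striatum Drd1a replicates 1 and 3, and old striatum Drd1a replicates 3 and 4. With 1 array left out it ran from 1.16 to 1.51, and the adjusted p in limma reached 0.118. In the cortex the difference of age changes between cell types was 0.32 ± 0.25 (SE; 95% interval -0.18 to 0.83; limma, adjusted p = 0.796).

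Gstm3, a mu-class enzyme, rose in Drd2 cells of both regions. In cortex Drd2 cells the old arrays read 1.15, 0.64, 0.12 and 0.13 and the young arrays -0.42, -0.81, -0.52 and -0.43. The old values were spread over more than 1 log2 unit and none overlapped the young ones. The change was 1.05 ± 0.17 (SE), or 2.08-fold (limma, adjusted p = 0.00135), and in a fit of those 8 arrays alone it missed the threshold (adjusted p = 0.0606). In striatum Drd2 cells the old arrays read 0.30, 0.00, -0.14 and -0.16 and the young arrays -0.93, -0.75, -0.86 and -1.25, also without overlap, a change of 0.95 ± 0.17 (SE) or 1.93-fold (limma, adjusted p = 0.000926). In Drd1a cells the changes were 0.54 ± 0.17 in the cortex and 0.48 ± 0.19 in the striatum (SE; limma, adjusted p = 0.202 and 0.178), with old arrays above young ones in both. The age change in Drd2 minus that in Drd1a cells was 0.52 in the cortex (95% interval 0.011 to 1.02; limma, adjusted p = 0.627) and 0.47 in the striatum (95% interval -0.056 to 1.00; limma, adjusted p = 0.908), so a difference between cell types was not detectable and is not shown to be absent.

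Gsta4, the alpha-class enzyme best known for conjugating 4-hydroxynonenal, a product of lipid peroxidation, rose in striatum Drd2 cells. The old arrays read -0.05, -0.41, 0.05 and -0.54 and the young arrays -0.98, -1.04, -0.77 and -1.48. The groups did not overlap, and the change was 0.83 ± 0.14 (SE), or 1.77-fold (limma, adjusted p = 0.000374). In striatum Drd1a cells the old arrays, from -0.26 to -0.01, were also above the young ones, from -0.66 to -0.54, but the change of 0.45 ± 0.15 (SE) did not pass (limma, adjusted p = 0.102). In cortex Drd2 cells it was 0.41 ± 0.14 (SE; limma, adjusted p = 0.0988), called after quantile normalization (0.40, adjusted p = 0.04), and in cortex Drd1a cells 0.024 ± 0.14 (SE; limma, adjusted p = 0.962). Drd2 minus Drd1a differences of the age change were 0.38 in both regions, with 95% intervals of -0.021 to 0.79 in the cortex and -0.042 to 0.80 in the striatum (limma, adjusted p = 0.67 and 0.908).

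**Figure D2:**
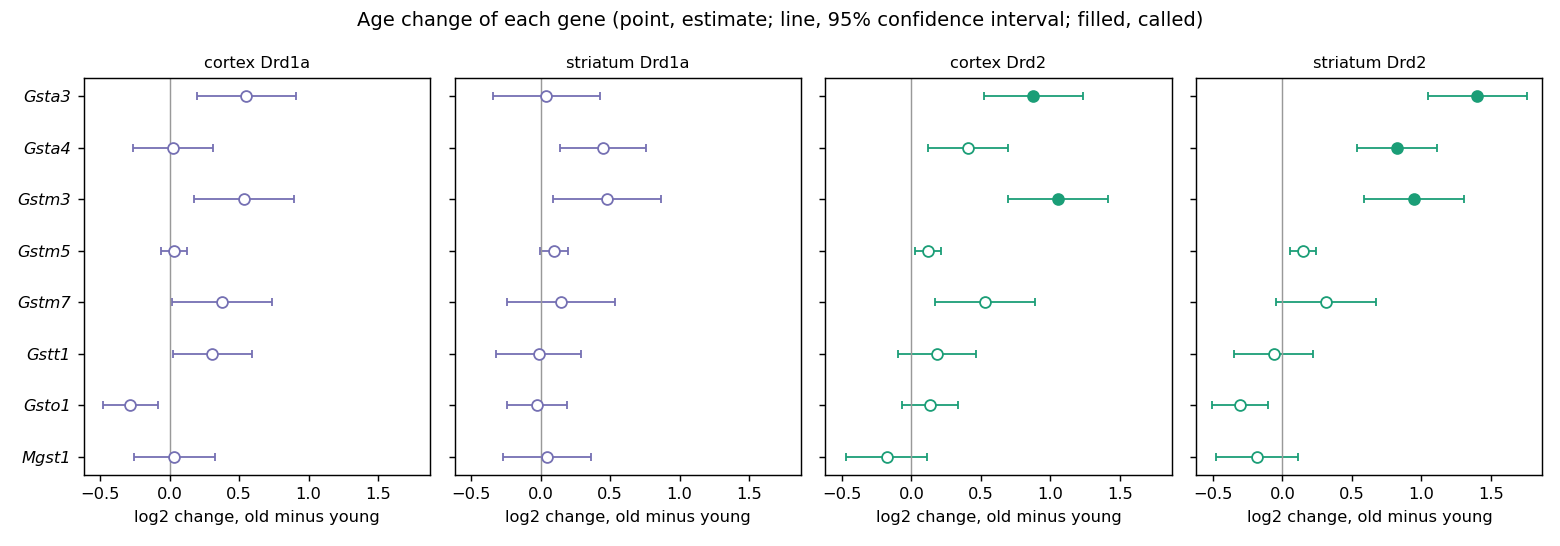
Each panel is 1 region and cell type; the horizontal axis is the log2 change from 6 weeks to 2 years, points are limma estimates, lines 95% confidence intervals, and filled points genes called. Filled points appear for Gsta3 and Gstm3 in cortex Drd2 cells (0.88 and 1.05) and for Gsta3, Gsta4 and Gstm3 in striatum Drd2 cells (1.40, 0.83 and 0.95).

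None of the other five genes was called for age at the main settings. Gstm7, another mu-class enzyme, read 0.98, 0.17, 0.40 and 0.53 in old and -0.14, -0.01, 0.00 and 0.12 in young cortex Drd2 cells, without overlap. Its change of 0.53 ± 0.18 (SE) missed the threshold (limma, adjusted p = 0.0866) and passed it after quantile normalization (0.58, adjusted p = 0.0311). Gstm5 kept to a small range, with group means from -0.18 to 0.12, and its change in striatum Drd2 cells had an adjusted p of 0.0486 (limma) but a size of only 1.11-fold. Gsto1, an omega-class enzyme that reduces dehydroascorbate and mixed disulfides, gave -0.30 ± 0.098 (SE) in striatum Drd2 cells (limma, adjusted p = 0.0607) and -0.28 ± 0.098 in cortex Drd1a cells (limma, adjusted p = 0.247). Gstt1, a theta-class enzyme that acts on halogenated methanes, ranged from -0.062 in striatum Drd2 cells to 0.31 in cortex Drd1a cells. Mgst1, a membrane enzyme that also reduces lipid peroxides, ranged from -0.18 to 0.046.

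Over all 8 genes the median age change was 0.17 in cortex Drd1a, 0.30 in cortex Drd2, 0.072 in striatum Drd1a and 0.23 in striatum Drd2 cells. The median of all features was 0.039, -0.023, -0.047 and -0.0084 in the same order. Old and young arrays did not overlap for 3, 5, 3 and 4 of the 8 genes, where 8.07%, 9.11%, 11.8% and 9.62% of all features did not overlap. Besides Gsta3 in the striatum, no listed gene was called for a difference between age changes. The background was 0.104% of features for cell types in the cortex, 0% for regions in Drd1a cells and 0.0184% for regions in Drd2 cells. In those comparisons limma counted 2, 1 and 3 of the 8 genes at an unadjusted p below 0.05, again without a background share.

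Markers of other cells moved with the Drd2 results, and their part in them was not tested. Beside the marker counts below, 1.85% of all features rose with age in cortex Drd2 and 2.72% in striatum Drd2 cells. In Drd1a cells 0.214% rose in the cortex and 1.58% in the striatum. Of 14 measured astrocyte markers, 4 rose with age in cortex Drd2 cells, among them, as log2 changes, Aldoc (1.29), Gfap (1.21) and Glul (1.18), and 4 rose in striatum Drd2 cells, among them Gfap (0.74), Aldoc (0.73) and Glul (0.61). None was called in either Drd1a comparison, where 5 (cortex) and 1 (striatum) had an unadjusted p below 0.05 in limma. Aqp4, the astrocyte water channel, read 0.10 in cortex and 0.24 in striatum Drd2 cells and passed in neither (limma, adjusted p = 0.834 and 0.335). The mean of the 14 markers ran from 0.065 to 0.61 in old and -0.16 to 0.049 in young cortex Drd2 arrays, and from -0.16 to -0.072 in old and -0.43 to -0.27 in young striatum Drd2 arrays. Both sets of old arrays lay above their young ones.

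Within old cortex Drd2 cells the array with the highest marker mean, 0.61, also had the highest Gstm3 and Gsta4 values (1.15 and 0.69). The next, 0.39, had the second highest of both (0.64 and 0.35). At marker means of 0.18 and 0.065, Gstm3 read 0.12 and 0.13 and Gsta4 0.25 and 0.22. The array at 0.61 also had a median above 0.05 (0.087) and the highest Gstm7 and Gstt1 values of its group (0.98 and 0.51). For Gsta3 the highest old cortex Drd2 array, at 1.59, had a marker mean of 0.18. The order of these 4 arrays was not tested. In cortex Drd1a arrays the marker mean was 0.27 to 0.50 when young and 0.37 to 0.74 when old. Gsta3 there ran from -0.84 to -0.43 in the young and from -0.15 to 0.11 in the old arrays. The part of astrocyte markers in the Gsta3 values was not tested.

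**Figure D3:**
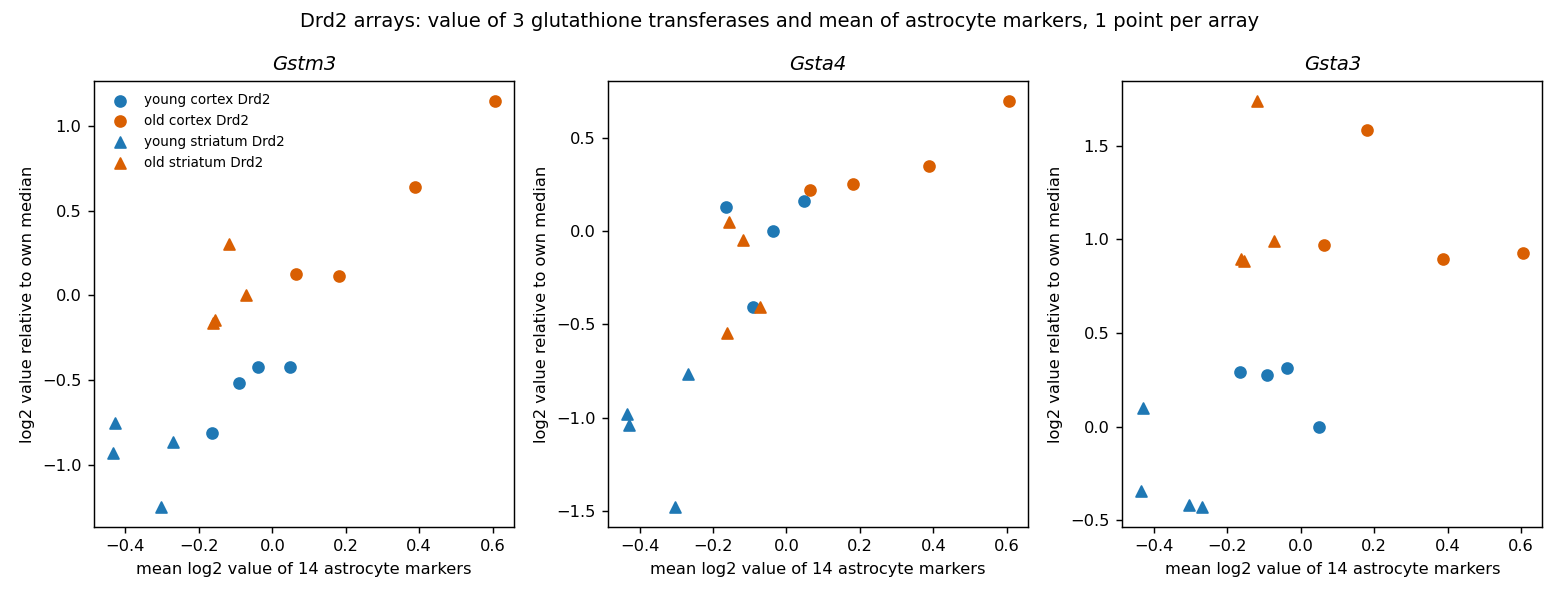
Each point is 1 Drd2 array; the horizontal axis is the mean log2 value of 14 astrocyte markers and the vertical axis the log2 value of Gstm3, Gsta4 or Gsta3, circles for cortex, triangles for striatum, blue for young and orange for old. The old cortex arrays with the highest Gstm3 and Gsta4 values are those with marker means of 0.39 and 0.61. The old Gsta3 arrays lie at 0.89 or above, at marker means of -0.16 to -0.072 in the striatum and 0.065 to 0.61 in the cortex. In each region the old arrays exceed the young ones in both marker mean and Gsta3. The part of the markers was not tested.

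Markers of direct-pathway neurons, the striatal cells that carry Drd1, also moved with age in Drd2 arrays. Of 8 measured, 3 rose in the cortex (Drd1, Tac1 and Chrm4) and 6 in the striatum, against none in Drd1a cells, where 1 (cortex) and 0 (striatum) had an unadjusted p below 0.05 in limma. Their mean went from between -1.40 and -1.11 in young to between -0.25 and -0.067 in old striatum Drd2 arrays, and from between -1.19 and -0.95 to between -0.54 and -0.30 in the cortex. In Drd2 arrays of each region, that mean and Gsta3 were both higher in old than in young arrays, without overlap. In striatum Drd1a arrays, where the marker mean was highest (1.83 to 2.05), Gsta3 was at or below 0.22. The part of direct-pathway markers in the Gsta3 values was not tested. Among 15 oligodendrocyte markers 4 rose in cortex Drd2, 3 in cortex Drd1a and 2 in striatum Drd2 cells, led by Trf and Apod, and Mal fell in striatum Drd1a cells. Of 5 indirect-pathway markers, Penk rose in striatum Drd1a and Ptprm in striatum Drd2 cells, and none was called in cortex Drd1a or Drd2 cells (3 and 1 at an unadjusted p below 0.05 in limma). No microglia (11), endothelial and pericyte (9) or ependymal and choroid plexus (5) marker was called in any age comparison. By unadjusted p below 0.05 in limma, microglia markers numbered 3, 1, 0 and 4 in cortex Drd1a, cortex Drd2, striatum Drd1a and striatum Drd2 cells. The ependymal list had 1 in cortex Drd1a cells and 0 elsewhere, and the endothelial list 0 in all 4.

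Between cell types, Gsta3 differed in the opposite direction to Gsta4, Gstm3 and Gsto1. In young cortex 4 of 8 genes differed, where 12% of all features did: Gsta4, Gstm3 and Gsto1 were higher in Drd1a cells and Gsta3 was higher in Drd2 cells. In old cortex 2 differed, with a background of 6.48%, and in old striatum 1, with a background of 2.81%. None differed in young striatum, where 3.05% of features did. There limma gave 2 of the 8 genes an unadjusted p below 0.05, a count without a background share.

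For Gsta3, Drd1a minus Drd2 was -0.83 ± 0.17 in young cortex, -1.16 ± 0.17 in old cortex and -1.27 ± 0.17 in old striatum (SE; limma, adjusted p = 0.00101, 6.37e-05 and 1.51e-05), and none of these groups overlapped. In young striatum it was 0.089 ± 0.19 (SE; limma, adjusted p = 0.998), with the groups intermixed. The group order of this gene was old striatum Drd2 (1.13 ± 0.41, SD), old cortex Drd2 (1.09 ± 0.33), young cortex Drd2 (0.22 ± 0.15), then 4 groups from -0.063 to -0.27, and young cortex Drd1a last (-0.61 ± 0.20). Of neighbours in this order, only old cortex Drd2 with young cortex Drd2, and young striatum Drd2 with young cortex Drd1a, had ranges that did not overlap.

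Gsta4 and Gstm3 showed the reverse direction in the young cortex. The young cortex Drd1a arrays read 0.93, 0.83, 0.77 and 0.70 for Gsta4, all above the Drd2 arrays at 0.16, 0.13, -0.41 and 0.00, a difference of 0.84 ± 0.14 (SE), or 1.79-fold (limma, adjusted p = 6.94e-05). For Gstm3 the Drd1a arrays read 0.74, 0.44, 0.42 and 0.40, and the difference was 1.05 ± 0.17 (SE), or 2.07-fold (limma, adjusted p = 6.86e-05), without overlap. In old cortex Gsta4 was still called at 0.45 ± 0.14 (SE; limma, adjusted p = 0.0444), although the groups overlapped and 24 of 41 alternative settings kept the call (leaving out any of 13 arrays ended it, with differences from 0.40 to 0.56 over all arrays left out in turn), and Gstm3 was not called at 0.53 ± 0.17 (SE; limma, adjusted p = 0.0645). Array weights (0.67, adjusted p = 0.00253) and leaving out the 6 arrays of high median (0.71, adjusted p = 0.00908) called Gstm3 there. In old striatum both were near 0, at 0.10 and 0.0019 (limma, adjusted p = 0.955 and 1.00). Gsto1 was 0.39 ± 0.098 higher in Drd1a than in Drd2 cells of young cortex (SE; limma, adjusted p = 0.00607), the Drd1a arrays reading 0.36, 0.12, 0.35 and 0.40 and the Drd2 arrays -0.10, -0.12, -0.17 and 0.05. Astrocyte marker means also differed between these groups, 0.27 to 0.50 in young cortex Drd1a and -0.16 to 0.049 in young cortex Drd2 arrays, and their part was not tested.

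Between regions every difference called at the main settings was lower in the striatum. In Drd1a cells 4 of 8 genes were lower at each age, Gsta4, Gstm3, Gstm7 and Gsto1 when young and Gsta4, Gstm3, Gstm7 and Gstt1 when old, where 9.1% and 8.8% of all features were lower. In Drd2 cells 1 of 8 (Gsta4) was lower when young and 2 of 8 (Gsta4 and Gsto1) when old, where 4.57% and 6.31% were. Gsta3, Gstm5 and Mgst1 were called for region in none of the 4 comparisons. For Gsta3, array weights called it higher in the striatum of young Drd1a cells (0.54; limma, adjusted p = 0.0148), and a fit of only the groups compared called it lower in young Drd2 cells (-0.49; limma, adjusted p = 0.0383).

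Gsta4 was the gene lower in the striatum in all 4 comparisons. The difference was -1.39 ± 0.15 in young Drd1a, -1.04 ± 0.14 in young Drd2, -0.97 ± 0.14 in old Drd1a and -0.62 ± 0.14 in old Drd2 cells (SE; limma, adjusted p = 4.6e-08, 8.69e-06, 5.96e-06 and 0.00317). That is 2.63-fold, 2.05-fold, 1.96-fold and 1.53-fold, and no pair of groups overlapped. The old cortex Drd1a arrays, for example, read 0.72, 0.98, 0.98 and 0.65, and the old striatum Drd1a arrays -0.15, -0.13, -0.01 and -0.26. By group mean the gene ranked old cortex Drd1a (0.83 ± 0.17, SD), young cortex Drd1a (0.81 ± 0.099), old cortex Drd2 (0.38 ± 0.22), young cortex Drd2 (-0.030 ± 0.26), old striatum Drd1a (-0.14 ± 0.10), old striatum Drd2 (-0.24 ± 0.28), young striatum Drd1a (-0.59 ± 0.067) and young striatum Drd2 (-1.07 ± 0.30). All 4 cortex groups were thus above all 4 striatum groups. The arrays of both cortex Drd1a groups overlapped, as did neighbours in the order from young cortex Drd2 down to young striatum Drd1a.

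Gstm3 was lower in the striatum in Drd1a cells by 0.98 ± 0.19 when young and 1.04 ± 0.17 when old (SE, differences of -0.98 and -1.04; limma, adjusted p = 0.000242 and 5.46e-05). The old cortex Drd1a arrays read 0.80, 1.13, 1.07 and 1.15 and the old striatum Drd1a arrays 0.36, -0.32, -0.22 and 0.19, without overlap. In Drd2 cells its differences were -0.40 when young and -0.51 when old, with overlapping arrays (limma, adjusted p = 0.18 and 0.0524), the second called after quantile normalization (adjusted p = 0.0496). Gstm7 gave -0.53 in young and -0.76 in old Drd1a cells (limma, adjusted p = 0.0466 and 0.00199). The young call of Gstm7 was kept in 19 of 41 alternative settings, and leaving out any of 19 arrays ended it (-0.59 to -0.41 over all arrays left out in turn). Gstt1 gave -0.58 in old Drd1a cells (limma, adjusted p = 0.0025), with 1 old striatum array, at 0.27, inside the cortex range. Gsto1 gave -0.30 in young Drd1a and -0.29 in old Drd2 cells (limma, adjusted p = 0.0415 and 0.0497), kept in 33 and 11 of 41 alternative settings. Leaving out any of 6 arrays ended the first of these (-0.36 to -0.27) and any of 24 the second (-0.38 to -0.24). Astrocyte marker means were lower in striatum than in cortex arrays of Drd1a cells (-0.43 to 0.022 against 0.27 to 0.74), and in old Drd2 cells likewise (-0.16 to -0.072 against 0.065 to 0.61). In young Drd2 cells they were -0.43 to -0.27 against -0.16 to 0.049. Of the 14 markers 9 were called lower in the striatum in Drd1a cells at each age, 3 in young and 7 in old Drd2 cells, with 1 called higher in each comparison. Their part was not tested.

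**Figure D4:**
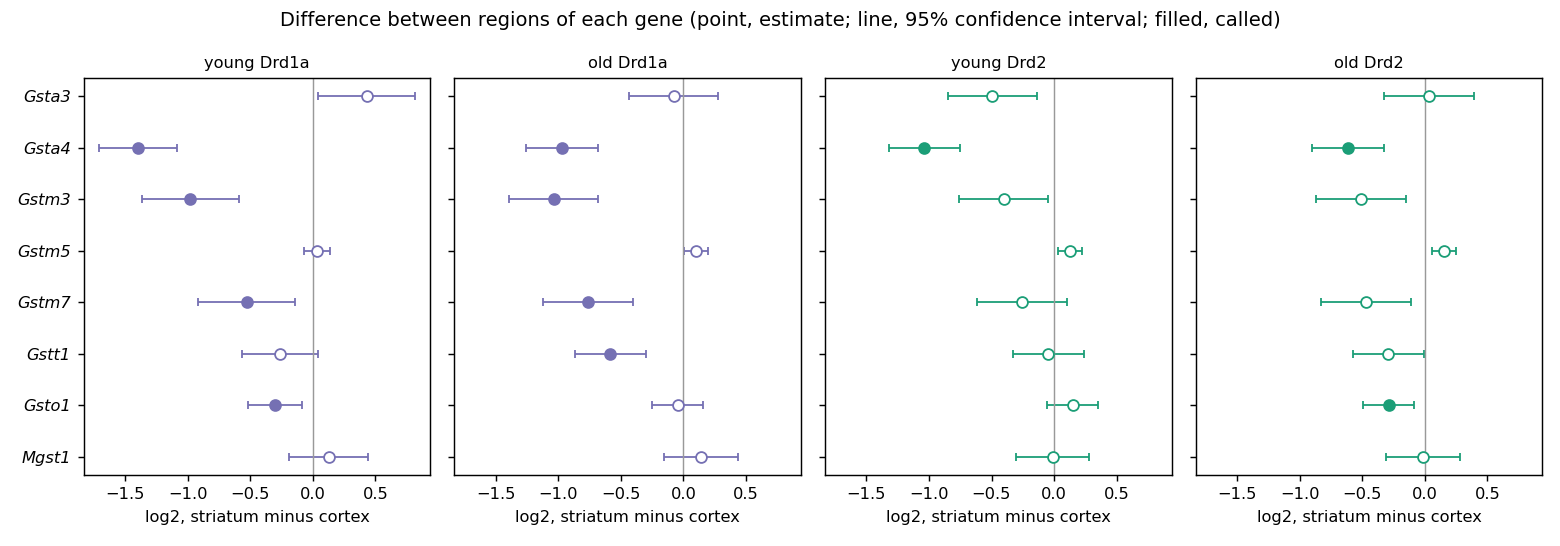
Each panel is 1 age and cell type; the horizontal axis is the log2 difference striatum minus cortex, points are limma estimates, lines 95% confidence intervals, and filled points genes called. All filled points lie left of 0, and Gsta4 is filled in every panel, from -1.39 to -0.62.

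The listed genes did not share 1 profile. Over the 31 arrays Gsta4 and Gstm3 correlated at Pearson's r = 0.86, and at 0.40 once group means were removed. Gsta3 correlated with Gsta4 at -0.015 and with Gstm3 at 0.10. Likeness was ranked only among features of 1 symbol, without listed members, predicted genes, clones, small RNA genes and olfactory, vomeronasal, taste or trace amine receptor loci. In that set the features most like Gsta3 were those of Arpc1a, a subunit of the actin-nucleating Arp2/3 complex (r = 0.87), Slc5a7, the choline transporter of cholinergic neurons (0.82), and Gpr149, an orphan receptor (0.80). Within groups these fell to 0.60, 0.64 and 0.24. Those most like Gsta4 were Phyh, a peroxisomal enzyme of phytanic acid breakdown (0.96), Kcnj3, an inwardly rectifying potassium channel (0.94), and Coprs (0.94), at 0.52, 0.59 and 0.53 within groups. Those most like Gstm3 were Ndrg2, known from astrocytes (0.94), Matn2, a matrix protein (0.92), and Slc39a6, a zinc transporter (0.91), at 0.69, 0.62 and 0.55 within groups. All these points share the same arrays and groups, so the correlations are descriptions.

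Other genes of glutathione metabolism were mostly not called for age. Beside the counts of these lists, 3.63% of all features were called for age in cortex Drd2 and 5.7% in striatum Drd2 cells. In Drd1a cells 0.453% were called in the cortex and 3.43% in the striatum. These shares cover both directions, and a share for falls alone is not given. Among 19 measured relatives of the transferase family outside the list, Gstm2 alone was called for age, in cortex Drd2 cells (0.33 ± 0.093, SE; limma, adjusted p = 0.038), with overlapping groups. The relatives' medians were 0.060, 0.029, -0.018 and 0.021 in cortex Drd1a, cortex Drd2, striatum Drd1a and striatum Drd2 cells, beside the all-feature medians given above. In the other three comparisons 3, 2 and 1 relatives had an unadjusted p below 0.05 in limma. Of 14 genes of glutathione synthesis and recycling, Slc1a1, a glutamate and cysteine transporter, rose in striatum Drd2 cells (0.36 ± 0.11, SE; limma, adjusted p = 0.0474), and no other was called. In cortex Drd1a, cortex Drd2 and striatum Drd1a cells 1, 4 and 0 of these genes had an unadjusted p below 0.05 in limma.

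Of 16 measured peroxidases, peroxiredoxins, glutaredoxins and thioredoxins with their regulators, 2 fell and 1 rose in cortex Drd2 cells and 3 fell in the striatum of each cell type, all changes here being on the log2 scale. Gpx1, the main cytosolic glutathione peroxidase, and Glrx5, a mitochondrial glutaredoxin of iron-sulfur cluster assembly, fell in 3 of 4 age comparisons. Gpx1 changed by -0.34 ± 0.078 in cortex Drd2, -0.40 ± 0.084 in striatum Drd1a and -0.48 ± 0.078 in striatum Drd2 cells (SE; limma, adjusted p = 0.0122, 0.00629 and 0.000223). Glrx5 changed by -0.44, -0.35 and -0.38 in the same groups (limma, adjusted p = 0.00324, 0.0263 and 0.00447). Txn2, the mitochondrial thioredoxin, fell by 0.44 in striatum Drd1a and by 0.31 in striatum Drd2 cells, and Txnip, a thioredoxin inhibitor, rose by 0.61 in cortex Drd2 cells (limma, adjusted p = 0.00445, 0.0171 and 0.0135). The other members of this list of 16 were not called, and in cortex Drd1a cells none was, with 4 at an unadjusted p below 0.05 in limma.

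Of 20 genes of the Nrf2 pathway outside the transferases, 3 rose in cortex Drd2 cells, where the list's median log2 change was 0.17. They were Pgd (0.69) and Tkt (0.62), enzymes of the pentose phosphate pathway, and Cbr1 (0.34), a carbonyl reductase (limma, adjusted p = 0.0121, 0.00277 and 0.0249). Ugdh, which makes UDP-glucuronic acid, rose in striatum Drd2 cells (0.43; limma, adjusted p = 0.0239), where the median was 0.044. None was called in cortex or striatum Drd1a cells, with 4 and 2 at an unadjusted p below 0.05 in limma. Among 17 genes that handle glutathione conjugates and aldehydes, Aldh3a2 and Aldh2, both aldehyde dehydrogenases, rose by 0.50 and 0.50 in cortex Drd2 cells together with Cbr1 (limma, adjusted p = 0.0221 and 0.0194), and Acy1, an aminoacylase that acts on mercapturic acids, fell by 0.30 in striatum Drd2 cells (limma, adjusted p = 0.0306). In cortex and striatum Drd1a cells none of the 17 was called, with 3 and 1 at an unadjusted p below 0.05 in limma. Of 5 genes that remove superoxide or hydrogen peroxide, Cat, catalase, rose in cortex Drd2 cells (0.58 ± 0.16, SE; limma, adjusted p = 0.0417), and in the other three comparisons none was called and 0 had an unadjusted p below 0.05.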

How the data were processed

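Per the submitters' processing notes, the exon arrays were summarised with RMA against mm8, and the authors deposited log2 values. In the deposited table each feature is centred on its median over the arrays (16341 of 16345 within 1e-06), so no level over background remains and a filter on dim features could not be run. The number of arrays limits the precision. In 3 columns 1 malformed value each was set to missing, and 1 further cell was empty. Genes were named from the platform annotation: 14793 features had 1 symbol, 814 several and 738 were not listed.

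limma 3.58.1 (R 4.3.3) was fitted to all features with 8 group means over 31 arrays (23 residual and 4.68 prior degrees of freedom). A feature was called at a Benjamini-Hochberg adjusted p below 0.05 and at least 1.2-fold, as the study's design text sets for age. Differences of age changes were contrasts of 4 groups. The fit was also run on simulated data with independent normal noise for each feature and array. Those data lacked the array shifts and outlying arrays seen here, so they cannot show how such arrays affect the calls. Alternatives were quantile normalization, median centring, fits of only the groups compared, a fixed or a random replicate block, array weights, limma-trend, other fold thresholds, leaving out each array, and leaving out arrays with a median above 0.05, which was chosen after seeing the data. The fixed block joined all arrays of the same replicate number. The random block joined only cortex and striatum arrays of the same age, cell type and number.

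Named genes were all listed members, and of every other list the genes called for age, at most 3 per list and comparison by size of change, plus the 3 genes most correlated with each member called for age, and Drd1 and Drd2 as label checks. The correlated genes came from the restricted set of features described with those correlations. Aqp4 was named after its values were seen. Members and lists were chosen with earlier results of these data known.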

Additional observations from a re-analysis of the deposited data

Results flagged for a closer look

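In 7 of 56 groups of 4 arrays, 1 array stood far from the others by Dixon's criterion, which chance meets in about 1 of 20 groups. Of these, 5 concerned Gsta3. Replicate 1 of old striatum Drd2 read 1.74 against 0.89 to 0.99, and replicate 3 of old cortex Drd2 read 1.59 against 0.90 to 0.97. Replicate 2 of young striatum Drd2 read 0.10 against -0.43 to -0.35, replicate 1 of young cortex Drd2 read 0.00 against 0.28 to 0.31, and replicate 2 of old striatum Drd1a read 0.11 against -0.25 to -0.20. For Gstm3, replicate 1 of young cortex Drd1a read 0.74 against 0.40 to 0.44. For Mgst1, replicate 3 of young cortex Drd2 read 0.74 against -0.19 to -0.085. With any one array left out, the age change of Gsta3 in Drd2 cells was still called in both regions.

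The age change of Gsta3 in the striatum differed between cell types, Drd2 minus Drd1a, by 1.36 (limma, adjusted p = 0.0277). Old Drd2 arrays were above young ones in 4 of 4, and old Drd1a arrays lay inside the young range. The call was kept in 31 of 41 alternatives, with an adjusted p in limma of up to 0.183, and young striatum Drd1a held 3 arrays.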

How the results depend on the processing

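No called value changed direction in any of 41 alternatives, and 15 of the 24 calls were kept in all of them. Among those kept, for age in striatum Drd2 cells, were Gsta3 (1.20 to 1.95), Gsta4 (0.51 to 0.93) and Gstm3 (0.72 to 1.01). Many of these alternatives could not change an estimate: the fold thresholds, limma-trend and fits of only the groups compared. Leaving out an array of a group not compared could not either, and removing the fold threshold could not end a call. The trend in limma-trend relates spread to a gene's mean level, which centred values do not hold, so it could not act as intended. That setting left 128 of 128 results the same. The count of 41 therefore overstates how far directions and calls were tested. Counts of called genes that moved to or from 0, or by a factor above 1.5, were as follows. Quantile normalization gave 1 for cell type in old cortex, 2 for region in young Drd1a, 5 for region in old Drd2 and 0 for the cell type difference of striatal age changes. Fits of only the groups compared gave 1 for age in cortex Drd2, 1 for cell type in old cortex, 2 for region in young Drd2, 1 for region in old Drd2 and 0 for the striatal difference. Array weights gave 1 for age in cortex Drd1a, 2 for age in striatum Drd1a and 4 for cell type in old cortex. The 1.5-fold threshold gave 1 for cell type in old cortex, 2 for region in young Drd1a and 1 for region in old Drd2. Without the arrays of median above 0.05 the counts were 4 for cell type in old cortex, 1 for region in old Drd2 and 0 for the striatal difference. Among smaller moves, array weights added Gsta3 and Gstt1 for region in young Drd1a. They also added Gsto1 for age in striatum Drd2 and Gstt1 for cell type in young cortex. Quantile normalization ended Gsta3 and added Gsta4 and Gstm7 for age in cortex Drd2. A random replicate block ended Gstm7 for region in young Drd1a. The 1.5-fold threshold ended Gsto1 for cell type in young cortex and Gstt1 for region in old Drd1a. The cause of these moves was not tested. A filter on dim features was not run, since the centred values hold no level.

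No pairing of arrays by replicate number was detected, which cannot exclude that cortex and striatum arrays share animals. Over 15 cortex and striatum pairs the correlation of deviations ran from -0.20 to 0.22. Of these, 3 pairs exceeded 0.1, and 8 of 30 arrays correlated best with their own number. The random block joined cortex and striatum arrays of the same age, cell type and number (correlation -0.064). It gave 1 called gene for region in old Drd2 cells. The fixed block joined all arrays of the same number over the 8 groups, so it does not model such sharing. It gave 1 called gene for age in striatum Drd1a cells (Gsta4). It added Gstm7 for age in cortex Drd2 cells and Gstm3 for cell type in old cortex (limma, adjusted p = 0.0355 and 0.049). For region in old Drd2 cells it added Gstm3 and Gstm7 and ended Gsto1 (limma, adjusted p = 0.0389, 0.0282 and 0.0628). With each array left out in turn, counts ran from 2 to 3 for age in cortex Drd2, 3 to 4 for age in striatum Drd2, 1 to 4 for cell type in old cortex, 0 to 1 in young striatum, 2 to 4 for region in young Drd1a, 1 to 2 in young Drd2, 1 to 3 in old Drd2, and 0 to 1 for the striatal difference.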
